A study of Arabidopsis thaliana with 4 samples.

Results

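The genes described here are 7 auxin genes of *Arabidopsis thaliana*: the response genes IAA20, IAA29, GH3.5 and LBD16, and the synthesis genes YUC2, YUC4 and YUC6. They were chosen by name, with earlier results of these data known. Each is read by 1 probe set that the platform annotation assigns to it alone, so the rule of taking the brightest probe set per gene had no choice to make. They are 7 of 13286 genes with a named probe set and 7 of 22746 probe sets tested.

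Whole seedlings of the Col-0 ecotype were compared on 4 expression arrays, with 2 pools of 60 seedlings in each group. The control line carried 35S-GVG, the dexamethasone-activated transcription factor GVG behind the broadly active 35S promoter. The RKD4-induced line carried 35S-GVG and in addition UAS-RKD4, the gene for the RWP-RK transcription factor RKD4 behind the sequence that GVG binds. Seedlings of both lines were moved to 1 µM dexamethasone on day 2 after germination, stayed there for 24 h and were 3 days old at harvest, so the steroid and GVG were common to both groups. The labels do not say how many independent transgenic lines were used, and the samples hold no array without dexamethasone, so a difference between the lines that does not come from RKD4 cannot be told apart from its induction. No probe set used here is assigned to RKD4, so its level is not analysed here.

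Auxin, indole acetic acid, is made from tryptophan in a short route whose last step is run by YUC flavin monooxygenases. In the nucleus it brings Aux/IAA repressors to their F-box receptors for destruction, which frees auxin response factors to switch on Aux/IAA, GH3, SAUR and LBD genes. GH3 enzymes join auxin to amino acids and so lower the free pool, and several of the response genes are used as readouts of auxin action in seedlings and in the embryo.

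Signals are linear intensities, and the median per array lay between 175 and 185. Changes are log2 differences, induced minus control, of log2(signal + 32.4) with the SE from limma and n = 2 pools per group. That SE is moderated. It mixes the spread of a gene's own pools (2 degrees of freedom) with that of probe sets of like signal (4.12 degrees of freedom). Each such SE, interval and p-value therefore does not measure the spread of that gene's pools alone. The pseudocount of 32.4 is the 25th percentile of all signals. A gene below it on all 4 arrays is called near the floor here. Changes are understated on this scale, most in such genes and less at higher signal. With only 4 arrays the precision is low. The sample titles call the pools of each group biological replicates. Nothing in the labels tells whether these came from separate sowings, and the spread behind each p-value may be partly technical. As seedlings hold photosynthetic and root tissue, their markers were read: RCA, the activase of Rubisco, had signals between 31622 and 41794, and the root hair expansin EXPA7 between 337 and 722. Of the markers measured with a named probe set, 4 of 9 for photosynthetic tissue, 3 of 8 for root and 2 of 8 for seed and embryo, none was at 0. EXPA7 fell by 0.83 ± 0.15, the root hair expansin EXPA18 fell by 0.71 ± 0.15 and PORB, an enzyme of chlorophyll synthesis, fell by 0.54 ± 0.11 (adjusted p 0.0126, 0.0205 and 0.0202, limma with Benjamini-Hochberg). The other photosynthetic markers measured, RCA, LHCB4.1 and PSAN, changed by -0.15 ± 0.17, -0.13 ± 0.13 and -0.27 ± 0.12, and none passed. In the seed and embryo list the embryo regulator BBM rose by 0.75 ± 0.21 and the storage protein gene PAP85 fell by 1.05 ± 0.25, with adjusted p of 0.0483 and 0.0311 in limma. Both read weakly. BBM read 39.8 and 26.9 in control and 89.0 and 67.4 in induced pools, with 1 array under the pseudocount. PAP85 read 64.8 and 35.6 in control and 1.55 and 13.2 in induced pools, with 2 arrays under it. The third root marker measured, JKD, a zinc finger gene of root patterning, lay at 59.0 in control and 58.4 in induced seedlings, a change of -0.00347 ± 0.19, so the root list did not move as a whole. Summed over the 3 root markers, of which JKD is by far the weakest, the signal was 1361 to 1763 in control and 888 to 938 in induced pools. The same sum ran from 78319 to 88485 and from 71920 to 75365 for the 4 photosynthetic markers, and from 62.5 to 105 and from 80.7 to 90.6 for the 2 seed and embryo markers. The part of these shifts in the auxin values was not tested, and in whole seedlings fewer cells of a type and less RNA per cell cannot be told apart.

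Of the response genes, 1 of 4 was called at an adjusted p under 0.05 in limma: IAA29 fell, whereas LBD16, GH3.5 and IAA20 missed the threshold. Of the synthesis genes, 0 of 3 were called, and neither YUC2, YUC4 nor YUC6 had an unadjusted p under 0.05 in limma (0.0596, 0.441 and 0.450). A missed call does not show that a gene stayed unchanged. Among all probe sets tested, 21.8% were called at an adjusted p under 0.05, and 11.8% were called as lower in induced seedlings. The balance of directions depended on scaling, with 2281 higher and 2673 lower here and 2535 higher and 2203 lower after median centring. With 1 of 7 genes called, the count is no higher than that background. The share called also depended on signal: 1.54% of probe sets near the floor passed, against 28.1% of those above the pseudocount on all 4 arrays. The 7 genes lay low in this range, with 2 near the floor and the brightest, GH3.5, at the 67.1th percentile of mean signal.

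IAA29 encodes an Aux/IAA repressor that is also known as a target of PIF factors in shade and warmth. Its signal was 145 and 154 in the control pools and 71.5 and 71.7 in the induced pools. The groups lay apart, and the pools of each group differed by far less than the groups did. From a mean of 149 ± 5.98 (SD) to 71.6 ± 0.157, the signal was 2.09-fold lower in induced seedlings. On the log2 scale IAA29 fell by 0.80 ± 0.17, with a 95% interval of -1.21 to -0.40 and an adjusted p of 0.0202 (limma, Benjamini-Hochberg). Of all probe sets, 5.29% had a lower change than IAA29. Among those between the 25th and the 50th percentile of mean signal, where IAA29 lies, 7.09% had a lower change and 16.2% were called. Leaving out any 1 of the 4 arrays ended the call, with adjusted p between 0.0791 and 0.103, while the change stayed between -0.84 and -0.77. Those fits have 1 residual degree of freedom and assume that the lone pool varies like the other group.

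IAA20 encodes a repressor of the same family that lacks the degron by which auxin marks most of its members for destruction. Its signal was 22.8 and 29.0 in the control pools and 4.80 and 21.1 in the induced pools. The induced pools were the lower ones, but all 4 values lay near the floor, and the induced pools were farther apart than the group means. Its change of -0.38 ± 0.22 (95% interval -0.92 to 0.15) had an adjusted p of 0.267 in limma. With a pseudocount of 1 the change was -1.24, still without a call, and without RKD4-induced replicate 1 or 2 it was -0.12 or -0.65, so its size rests on the pseudocount and on single pools.

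GH3.5, also called WES1, encodes an enzyme that joins auxin, and salicylic acid, to amino acids. It was the brightest of the 7 probe sets, with 430 and 472 in the control pools and 396 and 305 in the induced pools. Both induced pools lay below both control pools, though the nearest pools of the groups were closer to each other than the induced pools were. Its change was -0.34 ± 0.16 (95% interval -0.72 to 0.03), with an adjusted p of 0.172 in limma. Without RKD4-induced replicate 2, the lower of the induced pools, it was -0.17, and without replicate 1 it was -0.52.

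LBD16 encodes a LOB-domain factor that acts downstream of auxin response factors when lateral roots are started. Its signal was 143 and 139 in the control pools and 193 and 179 in the induced pools. It was the only response gene of the 4 with both induced pools above both control pools. Its change was 0.33 ± 0.15 (95% interval -0.04 to 0.71), a 1.32-fold higher mean signal, with an adjusted p of 0.177 in limma. With 1 array left out it lay between 0.29 and 0.38, so no single pool set its direction.

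**Figure D1:**
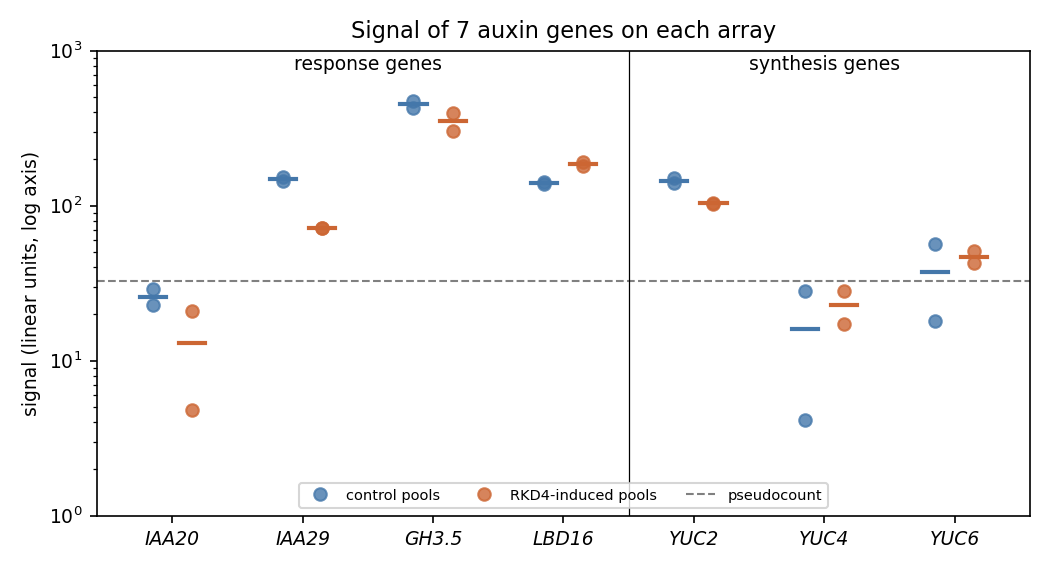
Signal of each gene (linear units on a log axis) on every array, with control pools in blue, RKD4-induced pools in orange, a bar at each group's mean of n = 2 and a dashed line at the pseudocount of 32.4. IAA29 separates widely from 149 to 71.6, IAA20 and YUC4 lie under the line on all 4 arrays, and YUC4 and YUC6 overlap between groups.

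YUC2 encodes a monooxygenase of auxin synthesis known from leaves and flowers. Its signal was 139 and 151 in the control pools and 103 and 105 in the induced pools. The groups lay apart, with a mean signal 1.39-fold lower in induced seedlings. Its change of -0.38 ± 0.16 (95% interval -0.77 to 0.02) had an adjusted p of 0.157 in limma and did not pass. With 1 array left out it ranged from -0.42 to -0.33, and across the other scalings, pseudocounts and models from -0.47 to -0.30, without a call.

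YUC4, which with its relatives acts in embryos, cotyledon tips and flowers, read 28.0 and 4.14 in the control pools and 28.3 and 17.2 in the induced pools. All 4 values lay near the floor and the groups overlapped. Its change of 0.22 ± 0.27 (95% interval -0.44 to 0.88) did not pass either (limma, adjusted p 0.615). Control replicate 2 set its direction: without that array the change was -0.14.

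YUC6, whose overexpression is known to raise auxin in the plant and to delay leaf ageing, read 56.5 and 18.1 in the control pools and 50.7 and 42.4 in the induced pools. Both induced values fell between the control values, and control replicate 2 was the only array under the pseudocount. Its change of 0.23 ± 0.29 (95% interval -0.47 to 0.94) did not pass in limma, with an adjusted p of 0.623. Without control replicate 2 it was -0.17, and without control replicate 1 it was 0.64. The intervals of YUC4 and YUC6 are wide in both directions, and as both genes read close to the pseudocount, they allow larger changes of the signal itself than of the log2 value.

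Side by side, the 4 response genes had a median log2 change of -0.36 and a range of -0.80 to 0.33, and the 3 synthesis genes a median of 0.22 and a range of -0.38 to 0.23. The synthesis median is the value of YUC4, near the floor, and single arrays set its size and sign: it was -0.17 without control replicate 2, 0.08 without RKD4-induced replicate 1 and 0.59 without control replicate 1. The response median lay between -0.43 and -0.29 in these 4 fits. The median over all probe sets was -0.08, and -0.04 with quantile normalization or median centring. The ranges of the response and synthesis genes overlap, and the difference between them was not tested. Control and induced signals did not overlap in 4 of 4 response genes and in 1 of 3 synthesis genes. Among all probe sets, 61.4% had groups that did not overlap, so the 5 of 7 here lie close to that share.

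**Figure D2:**
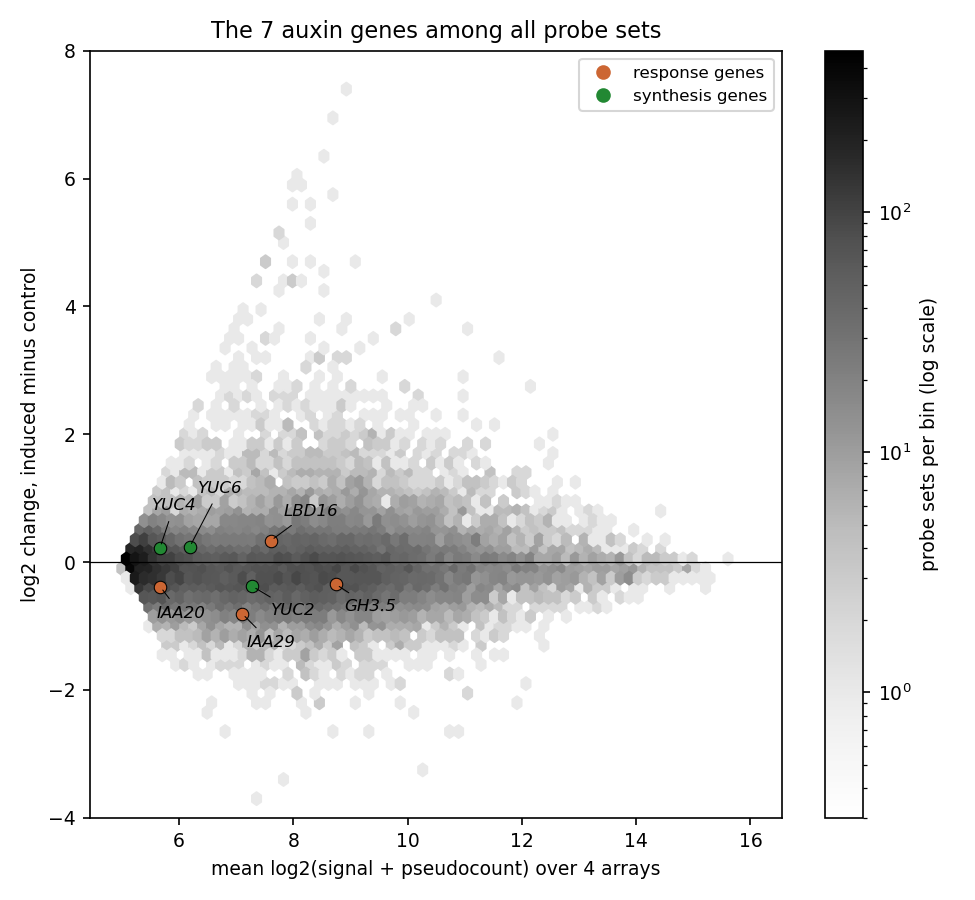
Log2 change (induced minus control) against mean log2(signal + 32.4) over 4 arrays, with all 22746 probe sets as grey bins, shaded by the number of probe sets on a log scale, and the 4 response genes in orange and 3 synthesis genes in green. All 7 lie within the dense part of the cloud, with IAA29 at its lower side at -0.80.

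The rest of the pathway could be read only in part, through 23 measured genes including the 7. Of these 23 genes 1 rose, 4 fell and 18 did not pass, with a median change of -0.30. Outside the 7, 1 of 16 rose and 3 fell. The share called is again close to the 21.8% of all probe sets. Of the names found in the gene table, none of 6 receptors, 23 auxin response factors, 78 SAUR genes, 15 further synthesis genes or 17 shade and PIF genes had a named probe set here.

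Of 29 Aux/IAA genes 7 were measured, of which 1 rose and 1 fell. That share is again near the 21.8% of all probe sets. IAA18, a repressor with a role in embryo patterning, had signals of 534 and 550 in the control pools and 839 and 874 in the induced pools. Both induced pools lay well above both control pools. IAA18 rose by 0.63 ± 0.10, with an adjusted p of 0.00887 in limma, and the change lay between 0.60 and 0.66 with 1 array left out. As for IAA29, each of those fits ended the call, with adjusted p between 0.0530 and 0.0659. The other 4 read weakly: IAA30 (mean signal 46.6, change -0.09 ± 0.18), IAA31 (36.8, -0.22 ± 0.21), IAA33 (25.8, -0.36 ± 0.19) and IAA34 (8.65, 0.30 ± 0.17). IAA34 was near the floor on all 4 arrays. With 1 array left out, IAA30 ranged from -0.19 to 0.02 and IAA31 from -0.41 to -0.03.

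Of 19 GH3 names sought 10 were found in the gene table, of which 5 were measured and 1 fell. Over all probe sets 21.8% were called, 11.8% as lower in induced seedlings, so this count is no result about GH3 genes. GH3.17, which joins auxin to glutamate, had signals of 853 and 1042 in the control pools and 454 and 554 in the induced pools. The lowest control pool was above the highest induced pool. GH3.17 fell by 0.87 ± 0.15, a 1.88-fold lower mean signal, with an adjusted p of 0.0110 in limma. It kept its call in 2 of 4 fits with an array left out, with adjusted p between 0.0380 and 0.0745. GH3.3, GH3.9 and GH3.1, relatives of GH3.5, had changes of -0.30 ± 0.20, -0.33 ± 0.20 and -0.33 ± 0.27, and none passed. GH3.1 was above the pseudocount only on control replicate 1 (37.1), and ranged from -0.64 to -0.03 with 1 array left out.

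Beside LBD16, LBD29, another lateral root factor, was measured at a mean signal of 30.3 and a change of 0.20 ± 0.25, which was -0.14 without control replicate 2 and 0.53 without control replicate 1. HAT2, an auxin-induced homeodomain gene, had signals of 528 and 508 in the control pools and 298 and 296 in the induced pools. The groups were far apart relative to the pools of either group. HAT2 fell by 0.74 ± 0.12, with an adjusted p of 0.00779 in limma, which lay between 0.0506 and 0.0582 with 1 array left out.

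For synthesis, YUC11 was the other YUC gene measured, near the floor on all 4 arrays, with a change of -0.11 ± 0.24 that ranged from -0.41 to 0.20 with 1 array left out. Among conjugation genes, UGT74D1, a glucosyltransferase that acts on auxin, had signals of 1422 and 1355 in the control pools and 680 and 694 in the induced pools. Both induced pools lay far below both control pools, with a mean signal 2.02-fold lower. UGT74D1 fell by 0.98 ± 0.10, with an adjusted p of 0.00173 in limma. Of the 5 called pathway genes it alone kept its call with each of the 4 arrays left out, with adjusted p between 0.0211 and 0.0255. The auxin glucosyltransferase gene UGT84B1 and its relative UGT84B2 were near the floor, with changes of -0.07 ± 0.14 and 0.13 ± 0.15. WAG2, a kinase that acts on PIN auxin carriers, was the single transport gene measured, with signals of 101 and 83.0 in the control pools and 55.2 and 45.5 in the induced pools. Its change of -0.59 ± 0.19 missed the threshold in limma, at an adjusted p of 0.0748. WAG2 passed where dim probe sets were filtered out (0.0401) or where the variance trend was dropped (0.0479).

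**Figure D3:**
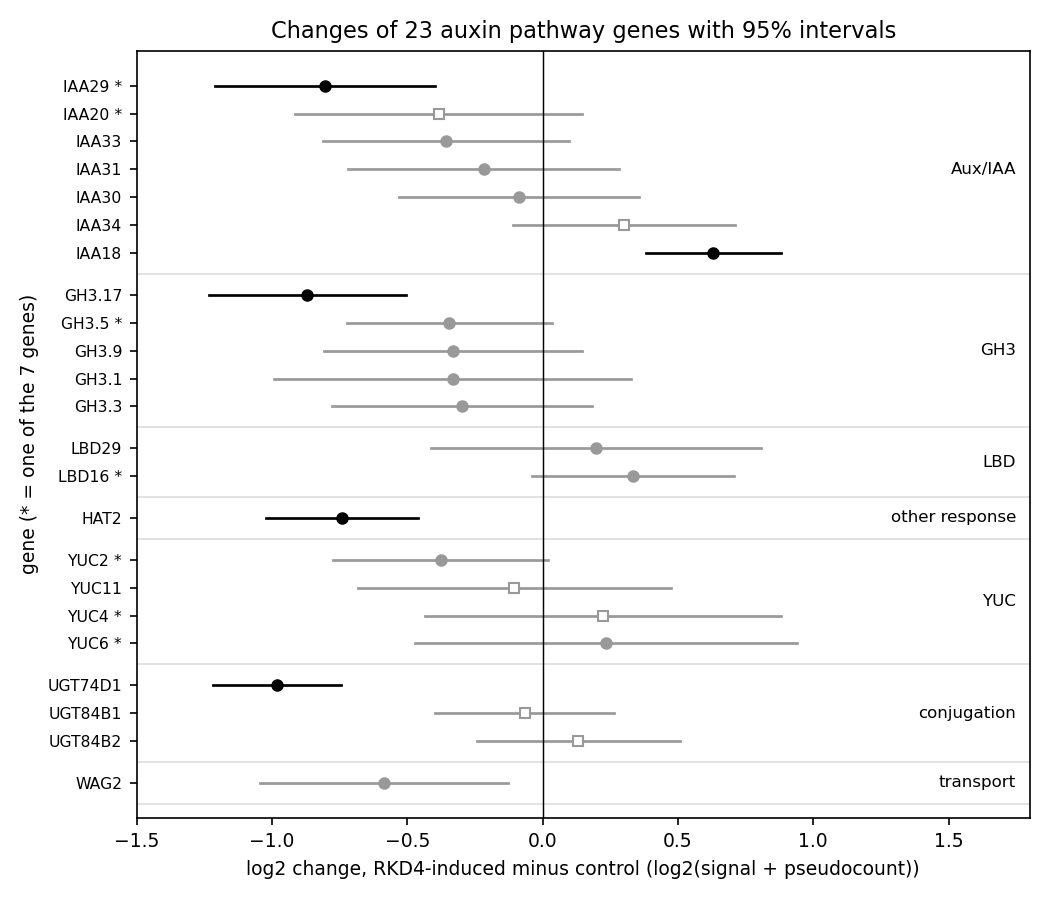
Log2 change (induced minus control) of 23 auxin pathway genes with 95% intervals from limma, n = 2 pools per group, grouped by role. Black marks genes with an adjusted p under 0.05, grey the others, open squares genes under the pseudocount on all 4 arrays, and stars the 7 genes. IAA29, GH3.17, HAT2 and UGT74D1 lie below 0 and IAA18 above it.

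The genes most like IAA29 over the 4 arrays were sought by Euclidean distance between log2 values, each less its own mean, among 1265 genes with a symbol and a mean signal above the pseudocount. The nearest were CHLI2, a subunit of the magnesium chelatase of chlorophyll synthesis (distance 0.0566), EXPA15, an alpha-expansin (0.0621), and FAAH, a fatty acid amide hydrolase (0.0736). CHLI2 fell by 0.77 ± 0.11, EXPA15 fell by 0.76 ± 0.11 and FAAH fell by 0.81 ± 0.11, all at higher signal than IAA29. Within the pathway lists, HAT2 was nearest of 9 candidates (0.106). With 4 arrays in 2 groups, this likeness says little more than that the change was of the same size.

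**Figure D4:**
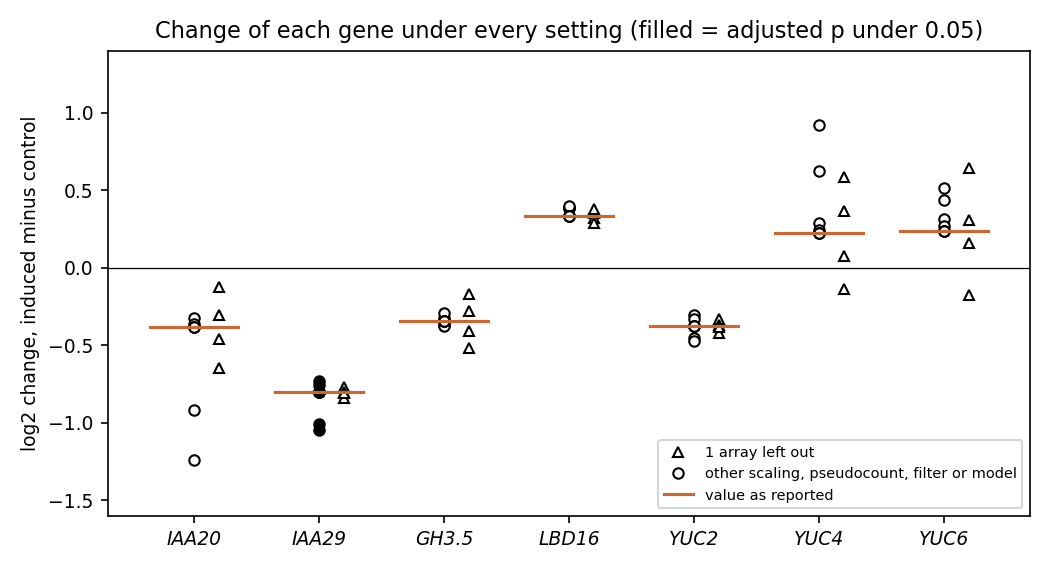
Log2 change of each gene (induced minus control) as reported (orange line), under other scalings, pseudocounts, filters and models (circles) and with 1 array left out (triangles), where filled marks have an adjusted p under 0.05. IAA29 is called in all circles and no triangle, and YUC4 and YUC6 cross 0 without control replicate 2.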

How the data were processed

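The arrays were processed with GCOS, Affymetrix's operating software, per the submitters' processing notes. No source used here names its version or options. The deposited values are linear signal intensities per probe set, and a 2% trimmed mean close to 500.05 on every array shows a common scaling by the authors, which was kept. After leaving out 64 AFFX controls, 22746 probe sets were tested. Genes were named through the platform annotation and matched by Entrez number to the genes of TAIR10.1; 13513 probe sets have 1 gene, of which 13436 matched. Genes of the lists were found by a symbol or synonym pointing to 1 locus.

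From the intensities log2(signal + 32.4) was computed and fitted with limma 3.58.1 in R 4.3.3, with group as the only term, a variance trend, and two-sided p-values, to which the Benjamini-Hochberg adjustment was applied across the whole table. An exact permutation test of 2 against 2 cannot go below p = 0.333 and was not run. The fit was tested on simulated data, where unchanged probe sets made up more of the calls than the nominal share. Far fewer probe sets were changed in that simulation than were called in these data, so its share does not carry over to these calls. The 7 genes and the lists were chosen with earlier results of these data known. Beside the 7, the rule named called pathway genes, up to 3 uncalled genes per list with the highest signal, and the nearest patterns to a called gene. IAA34, GH3.1 and YUC11, outside that rule, are given to complete their lists. Deviations of same-numbered pools correlated at 0.0807, and no pairing was assumed.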

Additional observations from a re-analysis of the deposited data

How the results depend on the processing

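The sign of the IAA29, IAA20, GH3.5, LBD16 and YUC2 changes was the same under every alternative tried. IAA29 was called with quantile normalization, median centring, both other pseudocounts (-1.01 and -1.05), the filter, no variance trend and the replicate block (adjusted p 0.0185), and uncalled with 1 array left out (-0.84 to -0.77). YUC4 turned to -0.14 and YUC6 to -0.17 without control replicate 2; over the 4 such fits they ranged from -0.14 to 0.59 and from -0.17 to 0.64, and the cause was not tested. The filter removed IAA20, YUC4 and YUC6. An adjusted p under 0.01 left 0 response genes called, 3 of the pathway genes against 5, and 2088 probe sets against 4954. An adjusted p under 0.05 with at least 2-fold on the pseudocount scale left 0 response genes, 0 pathway genes and 1593 probe sets. IAA29 and UGT74D1, 2.09-fold and 2.02-fold lower in mean signal, changed by -0.80 and -0.98 on that scale and so fell short. With 1 array left out, 0 response genes, 1 to 2 pathway genes and 1835 to 2223 probe sets were called. These fits have fewer degrees of freedom, and the part of that in the lost calls was not tested. The replicate block changed no call among the 7 genes, but with it 6301 probe sets were called against 4954. None of the pathway genes measured had several single-gene probe sets, so the choice of probe set changed none of their values. No depth is known for array signals, and nearness to background limits IAA20, YUC4 and YUC6.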

Other observations

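Of the 14 protein-coding genes adjacent to the 7 in the order of the TAIR10.1 table, 4 had a named probe set and 2 were called in limma. Over all probe sets 21.8% were called, and 30.8% of those between the 50th and the 75th percentile of mean signal, so this count of 2 is no result about neighbours. AT4G27270, next to GH3.5, fell by 0.93 ± 0.12 (adjusted p 0.00355), and AT4G13270, next to YUC2, fell by 0.50 ± 0.11 (0.0218). AT4G27250, on the other side of GH3.5, lay at 0.07 ± 0.17 and AT5G25630, next to YUC6, at -0.19 ± 0.12, and neither passed. No gene adjacent to IAA29 had a named probe set. This look at neighbours was added after the values were seen.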
